A study of Homo sapiens with 18 samples.

Results

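The comparison set 3 libraries of LNCaP cells kept in medium conditioned by M0 macrophages against 3 libraries of LNCaP cells kept in control medium. These 6 are all the libraries of the 2 groups, of 18 libraries and 6 groups in the whole series. LNCaP is an androgen-responsive human prostate cancer cell line, labelled as wild type, and the conditioned medium came from macrophages derived from the THP-1 monocytic leukaemia line. M0 is the usual name for macrophages before polarisation, and how the THP-1 cells were made into M0 macrophages was not described in the labels. Their medium was mixed, at a ratio given as 1:4, with RPMI that held 10% heat-inactivated FBS. The control was RPMI with 10% heat-inactivated FBS, penicillin-streptomycin and L-glutamine and no conditioned medium, so it had not been on any cells. Cells of both groups had been seeded in 6-well plates and held first in RPMI with 1% heat-inactivated FBS. The labels give neither group an inhibitor or DMSO, and exposure lasted 48 h in both. M1 (pro-inflammatory) and M2 (immunosuppressive) are polarised THP-1 macrophages whose medium was diluted in the same way. Their 6 libraries are compared below with M0 medium only. The main fit used all 18 libraries of the 6 groups, M1 medium with DMSO or the inhibitor IKK16 included. All 18 therefore shaped the filter on low counts and the estimate of spread behind each test of M0 against control medium. Polyadenylated RNA was sequenced, and the labels number the 3 replicates of a group without saying whether they were separate cultures. The p-values therefore cover the variation among these libraries only, part of which may be technical. Bulk RNA cannot tell fewer cells of a kind from less RNA per cell.

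Macrophages that have not been polarised still secrete cytokines, growth factors and enzymes, and tumour cells read part of this mixture through NF-kB. NF-kB is a family of paired transcription factors held in the cytoplasm by IkB proteins. Once the IkB kinases act, the factors enter the nucleus and switch on cytokine and survival genes, together with genes for their own inhibitors. In prostate luminal cells androgens drive a programme of secretory and metabolic genes and repress a smaller group. Inflammatory signals are known to dampen that programme. Hypoxia-inducible factors form a further axis, since they raise glycolytic enzymes when oxygen is short or when metabolism shifts.

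The files hold 1 table of counts per RefSeq transcript, in which the transcript with the highest total count stood for each of 28086 genes. Gene counts summed to between 26196595.5 and 30195501.5 in the M0 libraries and between 28211843 and 31350775.5 in the control libraries. A count of 0 then allows up to 3 counts, or 0.0957 to 0.115 CPM, the count scaled to the size of its library, and this limit covers counting error only. Replicates of a group were distinct libraries, with a chi-square per gene between 4.58 and 20.5 for each pair. Of 17069 genes that passed the filter on low counts, 1207 rose in M0 medium (7.07% of genes tested) and 768 fell (4.5%), by edgeR's quasi-likelihood test at a Benjamini-Hochberg adjusted p under 0.05. The changes were small. The median size of a log2 fold change among the called genes was 0.28, and 20 genes rose (0.117%) and 7 fell (0.041%) by at least 2-fold.

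Most of these calls depended on 2 libraries. Without control replicate 1 the test called 24 genes higher (0.139%) and 6 lower (0.0347%), and without M0 replicate 1 it called 55 (0.317%) and 14 (0.0808%). Leaving out M0 replicate 3 gave 574 and 283, and leaving out control replicate 3 gave 701 and 318. Leaving out M0 replicate 2 gave 1328 and 1000, and leaving out control replicate 2 gave 1505 and 1230. The direction was less sensitive than the call: all 1975 called genes kept the sign of their difference in each of these fits, and their median size was 0.26 without control replicate 1 and 0.24 without M0 replicate 1. The genes with an unadjusted p under 0.05 numbered 4878 with all libraries, 3526 without control replicate 1 and 3453 without M0 replicate 1. The 5 remaining libraries are among those that gave the first value, so the kept sign is no independent check.

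**Figure D1:**
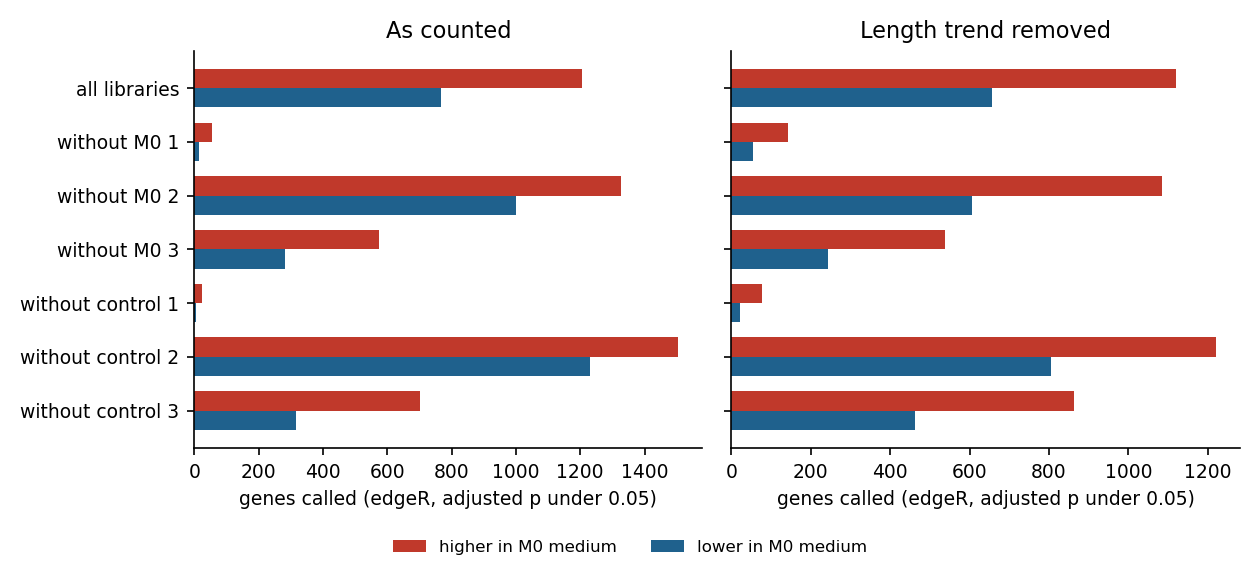
Genes called higher (red) and lower (blue) in M0 medium than in control medium, with all libraries and with each of the 6 libraries left out in turn. The left panel uses the counts as deposited and the right panel removes each library's trend with transcript length; bars are shortest without control replicate 1 (24 higher, 6 lower as counted) and without M0 replicate 1 (55 and 14).

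A set of 28 genes was called in the same direction under all 15 processing alternatives, the 6 left-out libraries included. It holds 23 genes that rose (0.135% of genes tested) and 5 that fell (0.0293%), and 24 of the 28 code for protein. In all 24 the M0 and control libraries did not overlap, against 27.3% of all genes tested. Since being called in each fit was the condition for entry, the lack of overlap is part of the choice and no finding. The same holds wherever it is described below for single members of the set. The protein-coding members that rose include IL32, RELB, OPTN, BIRC3, PLA2G2A, UGT2B17, CYP39A1, PRAC1, DIO1, NIPSNAP3A, BCHE, PEX2, PGK1, DUSP11, HADH, HSPA8, TFRC and AMD1. Those that fell are MYO15B, SLC41A1, FKBP5, PMEPA1 and SLC45A3. Their log2 fold changes ranged in size from 0.30 to 1.09. A naming rule added 68 called genes outside this set: all 68 lost their call without control replicate 1, and 65 of them without M0 replicate 1.

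**Figure D2:**
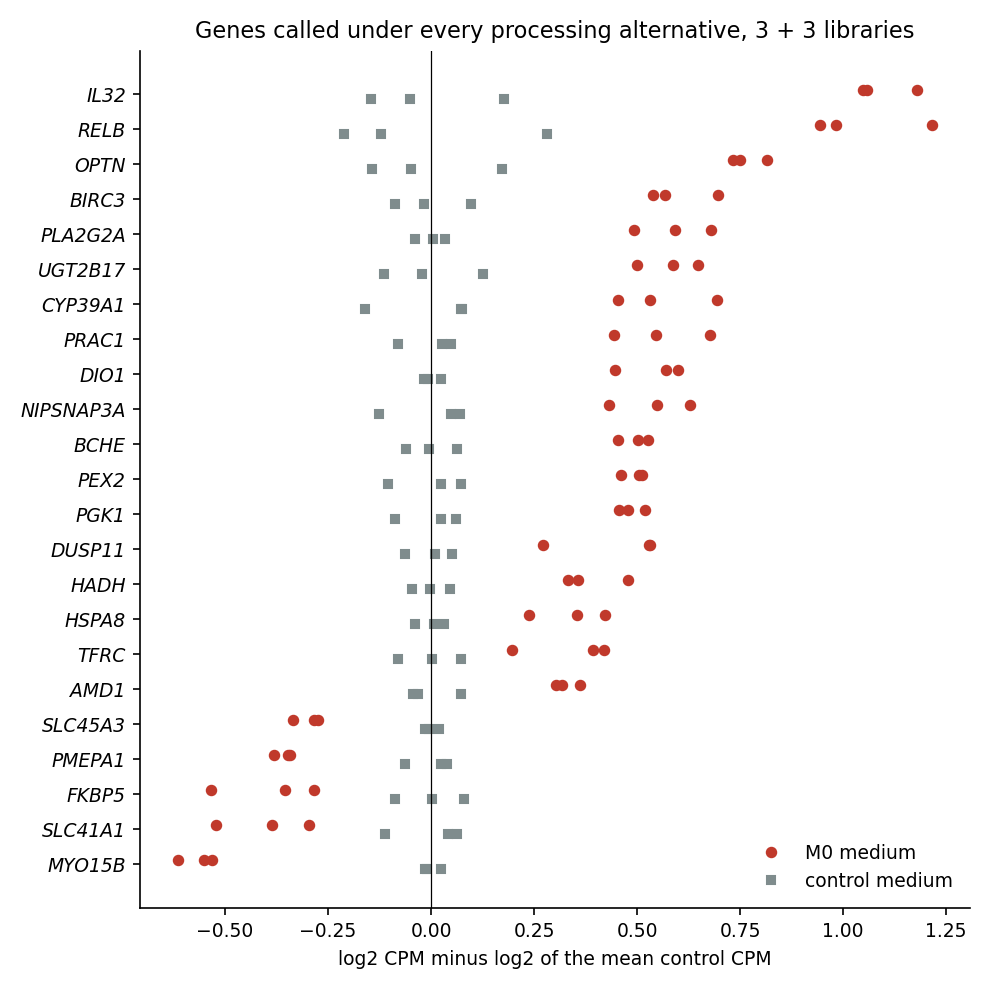
Protein-coding genes, 23 of the 24, called in M0 medium against control under all 15 processing alternatives. Each point is 1 library (circles M0, squares control), placed by its log2 CPM minus the log2 of the mean control CPM; the M0 circles of IL32 and RELB lie near 1 or above, which is a 2-fold rise, and those of the 5 genes that fell lie between -0.25 and -0.65.

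Promoters of IL32, BIRC3 and PGK1 are shown because their genes carry the NF-kB and the glycolytic part of the result. They come from RefSeq on GRCh38.p14, on the plus strand, and run from 250 bases before to 50 after the annotated start. Capitals mark GGGNNNNNCC, the core pattern of kappaB sites, in the IL32 and BIRC3 windows. In the PGK1 window they mark ACGTG or GCGTG, the core of hypoxia response elements. Both strands were searched, so a match on the minus strand appears as its reverse complement, and overlapping matches run together.
IL32 (chr16:3065153-3065452): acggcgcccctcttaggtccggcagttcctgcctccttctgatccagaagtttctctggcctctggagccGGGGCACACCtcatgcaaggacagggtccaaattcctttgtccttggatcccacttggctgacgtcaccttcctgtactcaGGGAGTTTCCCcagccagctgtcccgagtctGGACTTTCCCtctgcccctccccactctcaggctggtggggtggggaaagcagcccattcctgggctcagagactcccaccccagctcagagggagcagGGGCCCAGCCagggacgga
BIRC3 (chr11:102317234-102317533): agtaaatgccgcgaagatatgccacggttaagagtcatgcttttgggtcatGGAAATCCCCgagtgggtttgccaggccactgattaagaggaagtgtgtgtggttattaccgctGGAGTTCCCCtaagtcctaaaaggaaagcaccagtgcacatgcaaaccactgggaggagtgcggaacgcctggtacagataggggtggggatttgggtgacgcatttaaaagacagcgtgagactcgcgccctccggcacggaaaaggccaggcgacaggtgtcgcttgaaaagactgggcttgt
PGK1 (chrX:78103998-78104297): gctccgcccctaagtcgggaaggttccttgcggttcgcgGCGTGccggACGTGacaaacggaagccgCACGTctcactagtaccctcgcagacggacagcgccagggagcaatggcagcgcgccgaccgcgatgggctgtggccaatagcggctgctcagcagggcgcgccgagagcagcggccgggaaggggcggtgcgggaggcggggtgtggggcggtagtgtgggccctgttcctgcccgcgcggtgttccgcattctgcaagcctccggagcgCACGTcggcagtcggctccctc
The IL32 window holds 5 kappaB matches, which start 180, 99, 98 and 68 bases before the start site and 31 after it. BIRC3 holds 2, at 199 and 135 bases before the start. PGK1 holds 4 hypoxia patterns, at 211, 202 and 183 bases before the start and 28 after it. Such short patterns are common: at least 1 kappaB match lies in 58.7% of 35116 promoter windows of the same length and at least 2 in 36.7%, and a hypoxia pattern lies in 48.4%. At least 2 hypoxia patterns lie in 23.1% of the windows. A second annotated start of IL32 (chr16:3065534-3065833) has 1 kappaB match. In the set of 28, the genes that fell held between 3 and 5 kappaB matches in their fullest window. Among those that rose, OPTN held 6 and HSPA8 held 5, while PLA2G2A and BCHE held 0. The matches describe the letters of these windows and say nothing of which factor was bound.

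A minority of NF-kB genes rose in M0 medium. Of the 37 members tested of a list of 40, 7 rose, none fell and 30 did not pass the test, against 7.07% higher and 4.5% lower among all genes, and the median log2 fold change was 0.12, against -0.0015 over all genes tested. Without 3 members that had no count in 1 or both groups, the median was 0.12 as well. Over the whole list 3 members were called when either replicate numbered 1 was left out, and 6 with the length trend removed. Among the 5 subunits, RELB passed the test, 3 had an unadjusted p under 0.05, and 2 rose with the length and GC trends removed. RELB (chromosome 19, 45001464 to 45038192; all gene positions are on GRCh38.p14), the partner of p52 in the noncanonical branch of the pathway, had 5.57, 4.74 and 4.61 CPM in M0 medium, against 2.21, 2.07 and 2.92 CPM in control medium. Every M0 library stood above every control library (log2 fold change 1.04 ± 0.13 SE, edgeR adjusted p = 0.000277). The other subunits NFKB1, NFKB2, RELA and REL had log2 fold changes between -0.11 and 0.11 and did not pass it. None of the 4 kinases of the list, IKBKB, CHUK, IKBKG and MAP3K14, passed it either, with values between -0.02 and 0.05.

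Of the 9 inhibitors and feedback genes, 2 rose. NFKBIA, which codes for IkB alpha, had 66.4, 61.2 and 61.2 CPM in M0 medium, against 57.1, 53.4 and 52.9 CPM in control medium (log2 fold change 0.21 ± 0.05 SE, edgeR adjusted p = 0.0121). TNFAIP3, the ubiquitin-editing enzyme A20, had 2.42, 2.72 and 2.70 CPM in M0 medium, against 2.37, 1.51 and 1.68 CPM in control medium (log2 fold change 0.50 ± 0.15 SE, edgeR adjusted p = 0.0352). The groups did not overlap for either gene, although control replicate 1 came close to M0 replicate 1 for TNFAIP3. The remaining inhibitors, among them NFKBIB, NFKBIE, TNIP1 and CYLD, did not pass the test.

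Among the 19 of 22 targets that were tested, 4 rose. IL32 (chromosome 16, 3065403 to 3069530), a proinflammatory cytokine, had 6.92, 6.36 and 6.33 CPM in M0 medium, against 3.46, 2.95 and 2.76 CPM in control medium, and its 2.13-fold rise was the largest of the stable set (log2 fold change 1.09 ± 0.13 SE, edgeR adjusted p = 9.33e-05). BIRC3 (chromosome 11, 102317484 to 102339403), the cellular inhibitor of apoptosis cIAP2, had 6.92, 7.06 and 7.71 CPM in M0 medium, against 4.48, 4.71 and 5.09 CPM in control medium (log2 fold change 0.60 ± 0.09 SE, edgeR adjusted p = 0.00106). The 3 libraries of each group sat close together for both genes and far from the other group. LCN2, which codes for the iron-scavenging protein lipocalin, had 0.461, 0.515 and 0.264 CPM in M0 medium, against 0.132, 0.211 and 0.0931 CPM in control medium. The groups did not overlap, and control replicate 3 lies under the limit that 0 counts allow (log2 fold change 1.48 ± 0.37 SE, edgeR adjusted p = 0.018). TAP1, the peptide transporter of antigen presentation, had 61.9, 58.3 and 60.6 CPM in M0 medium, against 52.5, 55.7 and 52.8 CPM in control medium (log2 fold change 0.17 ± 0.05 SE, edgeR adjusted p = 0.0402). Several cytokine targets were near or at 0 in both groups: CXCL1 and IL6 had no count in the 6 libraries, and TNF, CXCL8 and CCL20 reached at most 0.231 CPM in any of them. Of the targets, 2 were called when either replicate numbered 1 was left out, and 4 with the length trend removed.

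OPTN (chromosome 10, 13100082 to 13138308), which codes for optineurin, an autophagy receptor that also restrains NF-kB signalling, stood outside the list. It had 10.4, 10.8 and 10.2 CPM in M0 medium, against 5.96, 5.58 and 6.95 CPM in control medium (log2 fold change 0.76 ± 0.08 SE, edgeR adjusted p = 9.33e-05). In OPTN, a member of the stable set, the lowest M0 library was above the highest control library. PLA2G2A (chromosome 1, 19975431 to 19980434), a secreted phospholipase of inflammation and antimicrobial defence, had 26.0, 24.5 and 22.8 CPM in M0 medium, against 15.8, 16.6 and 16.3 CPM in control medium (log2 fold change 0.59 ± 0.07 SE, edgeR adjusted p = 9.33e-05). Again no M0 library fell within the control range.

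Of 23 chemokines and cytokines tested of a list of 30, 4 rose and none fell (median log2 fold change 0.19, or 0.18 without 3 members that had no count in 1 or both groups): IL32, CXCL10, TNFSF10 and MIF. Over all genes tested 7.07% rose and 4.5% fell. IL32 is a member of the NF-kB list as well. TNFSF10, the death ligand TRAIL, had 5.69, 5.37 and 5.54 CPM in M0 medium, against 3.72, 4.25 and 3.69 CPM in control medium (log2 fold change 0.51 ± 0.14 SE, edgeR adjusted p = 0.0265). CXCL10, a chemokine of the interferon response, had 0.269, 0.441 and 0.264 CPM in M0 medium, against 0.0988, 0.0351 and 0.0931 CPM in control medium (edgeR adjusted p = 0.047). All 3 control values lie at or below the limit that 0 counts allow, so no fold change is given, and the call was lost with the length trend removed and without any one of the 6 libraries. The list kept 1 called member without control replicate 1, without control replicate 3 or without M0 replicate 1, and 2 when M0 replicate 3 was left out.

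Of 36 type I interferon genes, OAS1, IFI44 and IFI35 rose and STAT2 fell (median 0.13). These counts of 3 and 1 are near the shares over all genes, 7.07% higher and 4.5% lower, and are no result about the list. OAS1, an oligoadenylate synthetase that senses viral RNA, had 1.84, 2.68 and 2.11 CPM in M0 medium, against 1.09, 1.37 and 1.27 CPM in control medium (log2 fold change 0.83 ± 0.17 SE, edgeR adjusted p = 0.00863). IFI44, an interferon-induced protein, had 3.88, 4.82 and 4.88 CPM in M0 medium, against 3.10, 3.23 and 2.64 CPM in control medium (log2 fold change 0.61 ± 0.14 SE, edgeR adjusted p = 0.0136). STAT2, a subunit of the factor that drives these genes, went the other way, with 37.0, 41.3 and 40.7 CPM in M0 medium, against 50.6, 46.7 and 47.2 CPM in control medium (log2 fold change -0.28 ± 0.07 SE, edgeR adjusted p = 0.018). The M0 and control libraries did not overlap for any of these 3 genes. No member was called without control replicate 1. The counts were 1 higher and 1 lower without control replicate 3, and 2 and 0 without M0 replicate 1.

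In the list for interferon gamma and antigen presentation, 10 of 33 members rose and none fell (median 0.22). Over all genes tested the shares were 7.07% and 4.5%. Of the 10, 8 belong to the 13 genes of class I presentation, among them HLA-B, HLA-C, B2M, TAP1, PSMB8, PSMB9 and PSMB10. The others are GBP2, a guanylate-binding protein, and CXCL10, which is in the chemokine list as well. PSMB8, a catalytic subunit of the immunoproteasome, had 2.11, 2.54 and 2.04 CPM in M0 medium, against 1.32, 1.02 and 1.71 CPM in control medium (log2 fold change 0.71 ± 0.19 SE, edgeR adjusted p = 0.0202). PSMB9, its partner subunit, had 2.34, 1.62 and 1.38 CPM in M0 medium, against 1.25, 0.948 and 1.12 CPM in control medium (log2 fold change 0.67 ± 0.21 SE, edgeR adjusted p = 0.0384). HLA-C, a class I heavy chain, had 361, 332 and 338 CPM in M0 medium, against 281, 313 and 253 CPM in control medium (log2 fold change 0.28 ± 0.06 SE, edgeR adjusted p = 0.0112); the HLA genes share much sequence, so reads may be split between them. None of the 7 class II genes passed the test. Calls in the list were sensitive to the processing: with the length trend removed 4 class I genes rose and 1 class II gene fell. No member of the list was called without control replicate 1 or without M0 replicate 1. The counts were 3 without control replicate 3, 5 without M0 replicate 3 and 6 without control replicate 2.

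The androgen programme fell in part. Of its 32 genes 10 fell and none rose, against 4.5% lower and 7.07% higher among all genes, with a median log2 fold change of -0.10. Of the 5 members that are not targets 1 fell. FOXA1, HOXB13 and GATA2, factors of the luminal prostate lineage, did not pass the test, with log2 fold changes between -0.12 and 0.02.

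Of 27 androgen targets, 9 fell. FKBP5 (chromosome 6, 35573590 to 35728583), a co-chaperone of steroid receptors, had 131, 149 and 156 CPM in M0 medium, against 190.4, 179 and 201 CPM in control medium (log2 fold change -0.39 ± 0.06 SE, edgeR adjusted p = 0.0035). SLC45A3 (chromosome 1, 205657851 to 205680509), the prostate transporter prostein, had 344, 342 and 330.0 CPM in M0 medium, against 422, 415 and 412 CPM in control medium (log2 fold change -0.30 ± 0.05 SE, edgeR adjusted p = 0.00451). PMEPA1 (chromosome 20, 57648396 to 57711472), an androgen-induced gene that dampens TGF-beta signalling, had 141, 140.5 and 137 CPM in M0 medium, against 184, 171 and 182 CPM in control medium (log2 fold change -0.36 ± 0.06 SE, edgeR adjusted p = 0.00429). For each of these 3 genes the highest M0 library lay below the lowest control library, and these are the androgen targets of the stable set. TMPRSS2, a membrane serine protease and a classic androgen target, had 934, 963 and 928 CPM in M0 medium, against 1097, 1020 and 1093 CPM in control medium (log2 fold change -0.18 ± 0.05 SE, edgeR adjusted p = 0.0232). MAF, a transcription factor, had 25.5, 26.4 and 24.4 CPM in M0 medium, against 34.3, 30.6 and 32.6 CPM in control medium (log2 fold change -0.36 ± 0.07 SE, edgeR adjusted p = 0.00863). ZBTB16, KCNN2 and ACSL3 also fell, with log2 fold changes between -0.26 and -0.16. The kallikreins did not pass the test. KLK3, which codes for prostate-specific antigen, had 4000, 3610 and 3700 CPM in M0 medium, against 3680, 3930 and 3520 CPM in control medium (log2 fold change 0.02 ± 0.06 SE, edgeR adjusted p = 0.855). These values overlapped too.

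Genes that androgen represses went the other way. Of 5 tested, 3 rose and none fell (median 0.26), against 7.07% higher and 4.5% lower over all genes tested. UGT2B17 (chromosome 4, 68537173 to 68576322), which glucuronidates androgens for disposal, had 23.7, 21.4 and 22.7 CPM in M0 medium, against 14.0, 14.9 and 16.5 CPM in control medium (log2 fold change 0.58 ± 0.08 SE, edgeR adjusted p = 0.00106). Its neighbour and near copy UGT2B15 had 8.95, 8.53 and 10.3 CPM in M0 medium, against 6.39, 7.02 and 7.85 CPM in control medium (log2 fold change 0.39 ± 0.11 SE, edgeR adjusted p = 0.0256). Reads may be split between these 2 genes, so their separate levels are uncertain. DDC, an aromatic amino acid decarboxylase, had 114, 102 and 114 CPM in M0 medium, against 87.1, 93.8 and 96.8 CPM in control medium (log2 fold change 0.25 ± 0.06 SE, edgeR adjusted p = 0.0112). In all 3 genes the M0 libraries lay above the control libraries. With the length trend removed 10 androgen targets or factors fell and 3 repressed genes rose, as many as before. When either replicate numbered 1 was left out, 3 members of the first list and 1 of the second were called, and the first list had 6 when control replicate 3 was.

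Glycolytic and hypoxia genes rose by small amounts in a part of their members. Among all genes tested 7.07% rose and 4.5% fell. Of 17 glycolytic enzymes 5 rose and none fell, and of 6 transporters and regulators PDK1 rose (median of the 23 genes 0.06). PGK1 (chromosome X, 78104248 to 78129295), phosphoglycerate kinase and a target of hypoxia-inducible factors, had 612, 639.9 and 622 CPM in M0 medium, against 454, 465 and 419.9 CPM in control medium, a 1.40-fold rise (log2 fold change 0.48 ± 0.08 SE, edgeR adjusted p = 0.00262). The lowest M0 library was far above the highest control library; processed pseudogenes of PGK1 could share its reads. ALDOC, an aldolase, had 217, 222 and 224 CPM in M0 medium, against 189, 192 and 178 CPM in control medium (log2 fold change 0.24 ± 0.06 SE, edgeR adjusted p = 0.0164). LDHA, lactate dehydrogenase A, had 738, 819.7 and 828 CPM in M0 medium, against 703, 688 and 675 CPM in control medium (log2 fold change 0.21 ± 0.06 SE, edgeR adjusted p = 0.0394). ENO1 and PKM rose with log2 fold changes of 0.21 and 0.21. Hexokinases and phosphofructokinases did not pass the test: HK1, HK2, PFKL, PFKM and PFKP had values between -0.17 and 0.01.

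Of 28 hypoxia genes 7 rose and none fell (median 0.03), against 7.07% higher and 4.5% lower over all genes tested. The 7 are PGK1, HILPDA, PDK1, BNIP3L, EGLN3, BNIP3 and P4HA1. PGK1 and PDK1 are in the glycolytic list as well. HILPDA, a lipid droplet protein, had 37.1, 36.4 and 36.2 CPM in M0 medium, against 25.1, 31.9 and 27.7 CPM in control medium (log2 fold change 0.37 ± 0.12 SE, edgeR adjusted p = 0.0394). HILPDA was not called with the length trend removed (log2 fold change 0.25, edgeR adjusted p = 0.0926). BNIP3L, a mitophagy receptor, had 232, 249.9 and 252 CPM in M0 medium, against 205, 189.6 and 209 CPM in control medium (log2 fold change 0.28 ± 0.06 SE, edgeR adjusted p = 0.00863). PDK1, the kinase that closes pyruvate dehydrogenase, had 146, 160.5 and 156 CPM in M0 medium, against 126, 122 and 125 CPM in control medium (log2 fold change 0.30 ± 0.08 SE, edgeR adjusted p = 0.02). All 3 genes kept the M0 libraries above the control libraries. Several familiar members did not pass the test: VEGFA, SLC2A1, NDRG1, KDM3A and BHLHE40 had log2 fold changes between -0.09 and 0.02. HIF1A, whose product is controlled mainly as protein, had a value of -0.03. With the length trend removed 6 glycolytic and 5 hypoxia genes rose. Dropping control replicate 1 left 1 glycolytic and 1 hypoxia gene called, which are the same gene, PGK1. Dropping M0 replicate 1 left 1 and 3. Dropping M0 replicate 3 left 1 and 2, and dropping control replicate 3 left 2 and 3.

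Set directly against M2 medium, hypoxia genes were prominent among the few that differed. With edgeR, 18 genes were higher in M0 than in M2 medium (0.105% of genes tested) and 0 were lower, while 927 genes had an unadjusted p under 0.05 and DESeq2 called 42 higher and 3 lower. They include ALDOC, BNIP3, GDF15, P4HA1, DIPK2A, BHLHE40, NDRG1, LDHA, BNIP3L, SLC2A1, PGK1, ANKZF1, PFKFB4, VEGFA, KDM3A, ANGPT2 and P4HA2. Of these, BHLHE40, NDRG1, SLC2A1, VEGFA, KDM3A, PFKFB4, DIPK2A, P4HA2 and ANKZF1 did not pass the test between M0 and control medium. Their log2 fold changes against control lay between -0.09 and 0.06, so their difference from M2 medium is no rise over control. GDF15 and ANGPT2 did not pass that test either, with log2 fold changes against control of 0.19 and 0.39 (edgeR adjusted p = 0.088 and 0.0909). Among the 18 are 10 of the 28 hypoxia genes and 5 of the 23 glycolytic genes, and the median log2 difference over the hypoxia list was 0.32. BHLHE40, a hypoxia-induced repressor, had 51.1, 59.1 and 65.1 CPM in M0 medium and 40.3, 32.9 and 40.2 CPM in M2 medium (log2 difference 0.63 ± 0.11 SE, edgeR adjusted p = 0.0113). In control medium BHLHE40 had 64.2, 58.15 and 64.2 CPM, which overlapped the M0 libraries. ALDOC had 217, 222 and 224 CPM in M0 medium and 174, 153 and 159.8 CPM in M2 medium (log2 difference 0.44 ± 0.06 SE, edgeR adjusted p = 0.00368). PGK1 had 612, 639.9 and 622 CPM in M0 medium and 536, 446 and 419 CPM in M2 medium (log2 difference 0.42 ± 0.08 SE, edgeR adjusted p = 0.0243). M2 replicate 1 stood nearest to the M0 libraries in all 3 genes. Single libraries moved this count as well. No gene was higher once either M2 library numbered 2 or 3 was dropped, and 35 were once M2 replicate 1 was dropped. Dropping M0 replicate 2 left 4 genes and dropping M0 replicate 3 left 3. Of the 24 stable genes, 2 (PGK1 among them) passed the test between M0 and M2 medium and the other 22 did not, which does not show that those 22 responded alike.

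**Figure D3:**
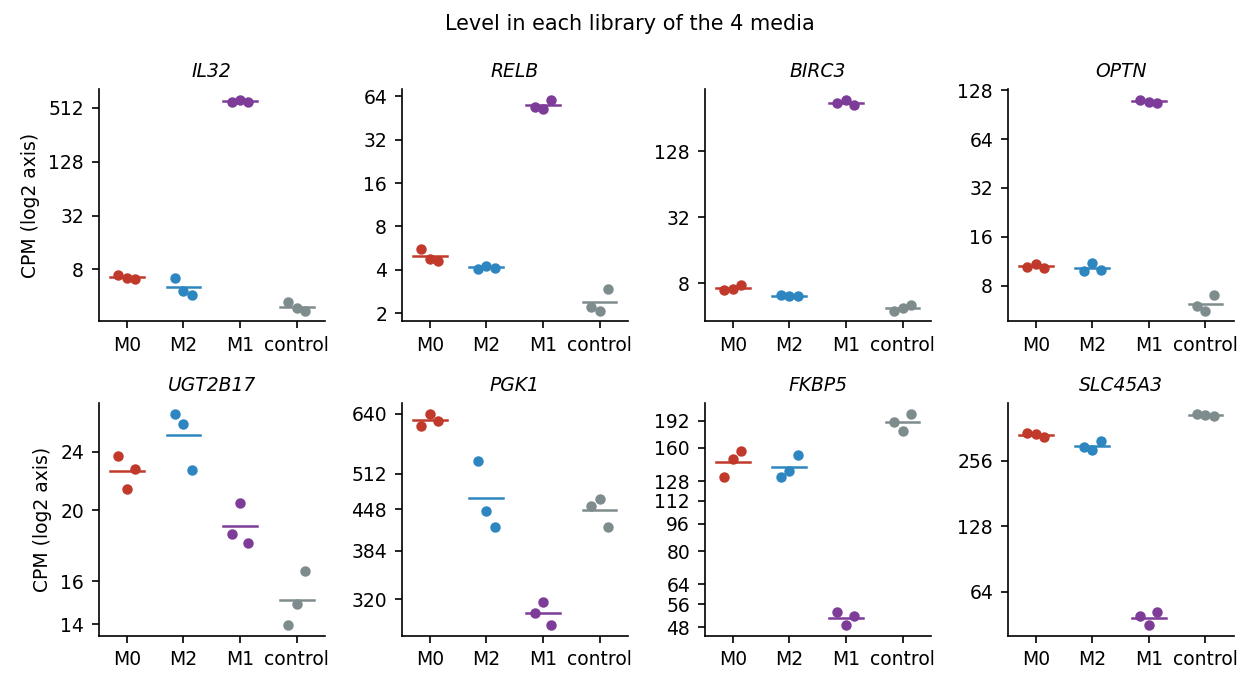
Levels of 8 genes of the stable set in every library of M0, M2, M1 and control medium, in CPM on log2 axes that differ between panels. Points are libraries and lines are means of 3; the M0 points lie above the control points in all panels but FKBP5 and SLC45A3, where they lie below.

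Against M1 medium the differences were of another size. Of the 17069 genes 67.0% differed: 5732 were higher in M0 than in M1 medium (33.6%) and 5707 were lower (33.4%). IL32 had 6.92, 6.36 and 6.33 CPM in M0 medium and 586, 629 and 586 CPM in M1 medium (log2 difference -6.52 ± 0.10 SE, edgeR adjusted p = 4.08e-24). RELB had 5.57, 4.74 and 4.61 CPM in M0 medium and 54.1, 52.6 and 60.9 CPM in M1 medium (log2 difference -3.49 ± 0.10 SE, edgeR adjusted p = 2.23e-19). BIRC3, OPTN and PLA2G2A stood in the same order, with the M0 libraries below the M1 libraries. On the androgen side SLC45A3 had 344, 342 and 330.0 CPM in M0 medium and 49.4, 45.0 and 51.6 CPM in M1 medium (log2 difference 2.80 ± 0.06 SE, edgeR adjusted p = 5.12e-22). FKBP5 had 131, 149 and 156 CPM in M0 medium and 53.1, 48.7 and 51.6 CPM in M1 medium (log2 difference 1.51 ± 0.07 SE, edgeR adjusted p = 1.57e-15). Of the 19 stable genes that rose against control, 8 were lower in M0 than in M1 medium and 8 were higher, and 5 of the 5 that fell were higher in M0 than in M1 medium. PRAC1, BCHE and PGK1 are among the 8 that were higher. PRAC1 had 186, 159 and 170.4 CPM in M0 medium and 40.7, 47.5 and 36.3 CPM in M1 medium (log2 difference 2.05 ± 0.10 SE, edgeR adjusted p = 2.49e-14).

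The stable set also holds genes of metabolism and protein handling. CYP39A1 (chromosome 6, 46549580 to 46652818), an oxysterol hydroxylase of bile acid synthesis, had 10.9, 10.4 and 12.3 CPM in M0 medium, against 7.97, 6.78 and 7.98 CPM in control medium (log2 fold change 0.56 ± 0.11 SE, edgeR adjusted p = 0.00798). HADH (chromosome 4, 107989889 to 108035171), a dehydrogenase of mitochondrial fatty acid oxidation, had 229.8, 208 and 212 CPM in M0 medium, against 159.9, 171 and 165 CPM in control medium (log2 fold change 0.39 ± 0.06 SE, edgeR adjusted p = 0.00248). PEX2 (chromosome 8, 76980258 to 77001044), a ubiquitin ligase subunit of the peroxisome membrane, had 58.8, 60.9 and 60.6 CPM in M0 medium, against 39.8, 45.0 and 43.5 CPM in control medium (log2 fold change 0.49 ± 0.08 SE, edgeR adjusted p = 0.00254). None of the M0 libraries of these 3 genes fell within the control range. DIO1 (chromosome 1, 53894187 to 53911086), the deiodinase that activates thyroid hormone, had 12.1, 10.9 and 11.9 CPM in M0 medium, against 7.97, 8.15 and 7.91 CPM in control medium (log2 fold change 0.54 ± 0.09 SE, edgeR adjusted p = 0.0035). BCHE (chromosome 3, 165772904 to 165837423), butyrylcholinesterase, was counted on a noncoding RefSeq transcript and had 112, 116 and 118 CPM in M0 medium, against 78.5, 81.6 and 85.6 CPM in control medium (log2 fold change 0.49 ± 0.06 SE, edgeR adjusted p = 0.00016). Both genes kept the groups well apart. Like BCHE, the genes LDHA, PDK1, TNFSF10 and IFI44 described above were counted on noncoding RefSeq transcripts. TFRC (chromosome 3, 196049284 to 196082090), the transferrin receptor, had 340.3, 397 and 390.1 CPM in M0 medium, against 281, 298 and 312 CPM in control medium (log2 fold change 0.34 ± 0.05 SE, edgeR adjusted p = 0.00248). AMD1 (chromosome 6, 110814617 to 110895713), an enzyme of polyamine synthesis, had 645, 652 and 672 CPM in M0 medium, against 507, 511 and 550.2 CPM in control medium (log2 fold change 0.33 ± 0.05 SE, edgeR adjusted p = 0.00308). The rises of TFRC and AMD1 were 1.26-fold and 1.25-fold, and here too the lack of overlap is part of the choice.

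HSPA8 (chromosome 11, 123057489 to 123062462), the constitutive HSC70 chaperone, had 1695, 1494 and 1617 CPM in M0 medium, against 1232, 1273 and 1293 CPM in control medium (log2 fold change 0.34 ± 0.06 SE, edgeR adjusted p = 0.00367). PRAC1 (chromosome 17, 48721719 to 48722518), a small nuclear protein made in prostate and distal colon, had 186, 159 and 170.4 CPM in M0 medium, against 119, 121 and 110.5 CPM in control medium (log2 fold change 0.56 ± 0.10 SE, edgeR adjusted p = 0.00592). The M0 and control libraries did not overlap in either gene. DUSP11 (chromosome 2, 73762213 to 73780149), a phosphatase that acts on RNA, had 14.9, 17.8 and 17.8 CPM in M0 medium, against 12.4, 11.8 and 12.8 CPM in control medium (log2 fold change 0.45 ± 0.08 SE, edgeR adjusted p = 0.00592). M0 replicate 1 was nearest to the control libraries. DUSP11 was the only one of the 24 to lose its call under any of 8 alternatives added after the data were seen, with the length trend removed and control replicate 1 left out. NIPSNAP3A (chromosome 9, 104747683 to 104760120) had 90.8, 79.2 and 85.8 CPM in M0 medium, against 53.8, 61.6 and 60.7 CPM in control medium (log2 fold change 0.54 ± 0.08 SE, edgeR adjusted p = 0.00106). HSPA8 and AMD1 have processed pseudogenes and NIPSNAP3A has a close paralogue, so their reads may be split.

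MYO15B and SLC41A1 complete the genes that fell. MYO15B (chromosome 17, 75587800 to 75626849), an unconventional myosin gene, had 25.3, 24.2 and 25.6 CPM in M0 medium, against 36.8, 37.6 and 36.6 CPM in control medium (log2 fold change -0.56 ± 0.08 SE, edgeR adjusted p = 0.00092). SLC41A1 (chromosome 1, 205789095 to 205813198), a magnesium transporter, had 50.2, 58.7 and 55.1 CPM in M0 medium, against 75.3, 66.7 and 74.2 CPM in control medium (log2 fold change -0.40 ± 0.07 SE, edgeR adjusted p = 0.00367). Its highest M0 library was below the lowest control library. The 4 noncoding genes of the set all rose. The mitochondrial small ribosomal RNA MT-RNR1 had 364, 346 and 360.2 CPM in M0 medium, against 268, 256 and 284 CPM in control medium (log2 fold change 0.40 ± 0.07 SE, edgeR adjusted p = 0.00451). MGC4859 had 118, 106 and 116 CPM in M0 medium, against 88.2, 86.9 and 91.0 CPM in control medium (log2 fold change 0.35 ± 0.05 SE, edgeR adjusted p = 0.00231). LINC00526 had 6.53, 6.17 and 6.52 CPM in M0 medium, against 4.21, 4.32 and 3.51 CPM in control medium (log2 fold change 0.68 ± 0.12 SE, edgeR adjusted p = 0.00677). The small nucleolar RNA SNORD49B had 13.6, 12.2 and 13.7 CPM in M0 medium, against 9.22, 8.67 and 9.06 CPM in control medium (log2 fold change 0.56 ± 0.09 SE, edgeR adjusted p = 0.00451). Ribosomal and small nucleolar RNA lack the long tail that the libraries were selected on, so these values describe the part that was captured. MT-RNR1 also has nuclear copies that may share reads. Its log2 fold change was 0.28 with the length trend removed, and it was called under 5 of the 8 added alternatives.

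The largest rises among protein-coding genes of at least 1 CPM whose groups did not overlap were IL32, ZYG11A, MMP7, RELB, OAS1, OPTN, PSMB8 and PSMB9. MMP7, the secreted protease matrilysin, had 4.88, 5.44 and 5.40 CPM in M0 medium, against 2.17, 2.04 and 3.23 CPM in control medium (log2 fold change 1.07 ± 0.18 SE, edgeR adjusted p = 0.00451). ZYG11A, a substrate receptor of cullin ubiquitin ligases, had 1.61, 1.29 and 1.28 CPM in M0 medium, against 0.527, 0.527 and 0.900 CPM in control medium (log2 fold change 1.08 ± 0.29 SE, edgeR adjusted p = 0.0225). Both stayed under 6 CPM in all 6 libraries. The largest falls were AMOTL1, C13orf46, ANO9, FABP3, MYO15B, IGF1R, ALOXE3 and CHD7. IGF1R, the receptor for insulin-like growth factors, had 26.0, 38.4 and 32.4 CPM in M0 medium, against 51.7, 38.6 and 49.2 CPM in control medium (log2 fold change -0.53 ± 0.13 SE, edgeR adjusted p = 0.0174). Its M0 replicate 2 and control replicate 2 were almost level. AMOTL1, an angiomotin family protein of cell junctions, had 1.92, 2.50 and 1.78 CPM in M0 medium, against 3.19, 3.09 and 3.51 CPM in control medium (log2 fold change -0.66 ± 0.21 SE, edgeR adjusted p = 0.0447). FABP3, a fatty acid-binding protein, had 1.23, 0.992 and 1.22 CPM in M0 medium, against 1.55, 1.79 and 1.80 CPM in control medium (log2 fold change -0.58 ± 0.18 SE, edgeR adjusted p = 0.0418). Outside the stable set, all of these lost their call without control replicate 1. AMOTL1 and PSMB9 lost it with the length trend removed too (log2 fold changes -0.55 and 0.54, edgeR adjusted p = 0.0895 and 0.078).

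The size of a change followed the length of the transcript. Over the 14902 genes tested that have a transcript length (87.3%), the Spearman correlation between the log2 fold change and length was -0.34, taken across genes that share the same 6 libraries. In the shortest of 5 equal length bins (52 to 1372 bases) 439 genes rose and 31 fell, with a median log2 fold change of 0.11. In the longest bin (4735 to 103053 bases) 78 rose and 324 fell, with a median of -0.12. Median length was 1666 bases for genes that rose and 4530 bases for genes that fell, against 2588 bases for genes tested. Single libraries carried the pattern to different degrees. Between a library's deviation from the mean of the 6 and length, the Spearman correlation was -0.40, 0.01 and -0.18 in the M0 libraries and 0.27, -0.10 and 0.39 in the control libraries. M0 replicate 2 was flat and control replicate 2 sloped with the M0 libraries, so the groups did not separate cleanly (exact permutation test, two-sided, p = 0.2, where 3 against 3 cannot go below 0.1). GC content of the transcript was related as well (Spearman correlation -0.17 with the log2 fold change), and its 6 library values overlapped (exact permutation test, two-sided, p = 0.3).

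With each library's length trend removed, 1120 genes rose (6.56%) and 657 fell (3.85%), and the Spearman correlation with length was -0.02. The correlation with GC content was then stronger, at -0.27 against -0.17 before. Of the 1207 genes that rose before, 879 were called again, and of the 768 that fell, 498 were. The bins then evened out, with 205 genes higher and 95 lower in the shortest bin and 206 and 147 in the longest. After this step 78 genes were higher and 22 lower when control replicate 1 was left out, and 143 and 54 when M0 replicate 1 was. The dependence on those 2 libraries was therefore present with and without the length trend. Removing the GC trend as well gave 1099 higher (6.44%) and 754 lower (4.42%), with Spearman correlations of 0.003 with GC content and -0.09 with length.

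**Figure D4:**
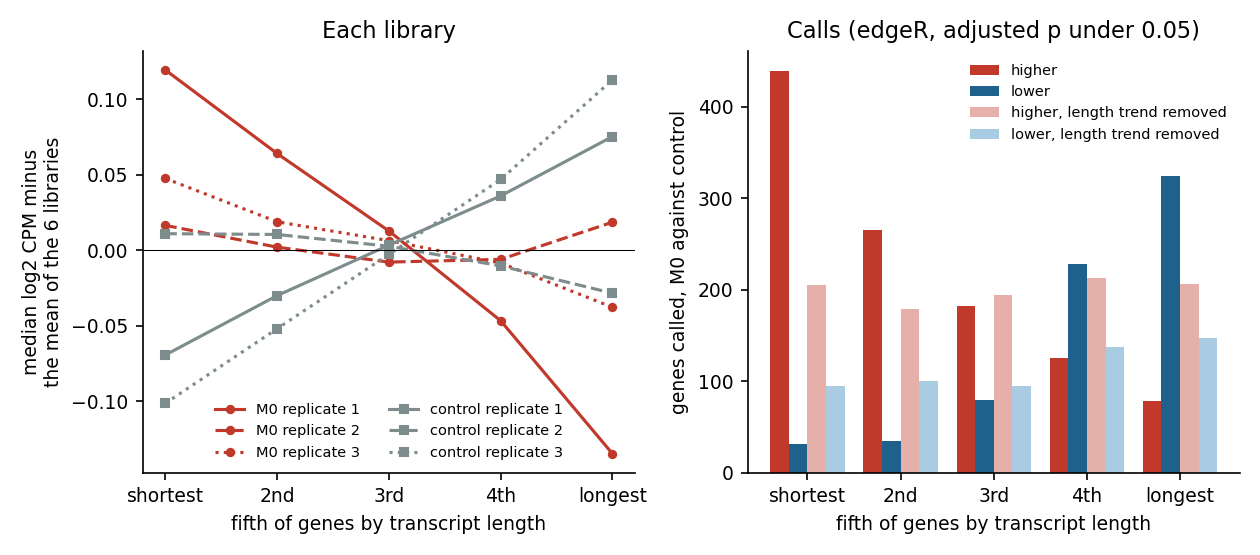
Left, the median over genes of each library's log2 CPM minus the mean of the 6 libraries, in 5 bins of transcript length; M0 replicate 1 lies at 0.12 in the shortest and -0.13 in the longest bin, control replicates 1 and 3 climb, and both replicates numbered 2 stay near 0. Right, genes called higher and lower in M0 medium per bin, before and after each library's length trend was removed.

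Several gene groups with short transcripts held many of their members among the rises. The share that rose was 7.07% over all genes tested and 14.7% in the shortest length bin. Of 77 cytosolic ribosomal protein genes, whose median transcript has 876 bases, 48 rose and none fell (median 0.30, against -0.0015 over all genes tested). Their summed level was 21260, 18580 and 18920 CPM in M0 medium, against 15830, 17160 and 15060 CPM in control medium. M0 replicate 1 was highest, and control replicate 2 came nearest to the M0 libraries. RPSA, a small-subunit protein, had 54.9, 42.8 and 51.1 CPM in M0 medium, against 35.6, 39.9 and 29.4 CPM in control medium (log2 fold change 0.51 ± 0.12 SE, edgeR adjusted p = 0.0148). The groups did not overlap. With the length trend removed 32 of the 77 rose and the median was 0.22. No member was called without control replicate 1 or without M0 replicate 1, and 22 were without control replicate 3. Many of these genes have processed pseudogenes that may share reads.

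The mitochondrial groups showed the same picture, against 7.07% higher over all genes tested and 14.7% in the shortest length bin. The proteasome list, with a median of 1521 bases, belongs by length to the second bin, where 8.9% rose. Of 74 subunits of oxidative phosphorylation 39 rose and none fell (median 0.23), which were 14 of 36 in complex I, 16 of 23 in complexes II to IV and 9 of 15 in ATP synthase. NDUFB5, a complex I subunit, had 148, 129 and 139.7 CPM in M0 medium, against 95.7, 115 and 94.4 CPM in control medium (log2 fold change 0.45 ± 0.09 SE, edgeR adjusted p = 0.00862). NDUFA2, of the same complex, had 173, 132 and 142 CPM in M0 medium, against 108, 124 and 94.4 CPM in control medium (log2 fold change 0.45 ± 0.11 SE, edgeR adjusted p = 0.0174). Of 47 mitochondrial ribosomal proteins 18 rose and none fell (median 0.20), among them MRPS23 with 135, 109 and 119 CPM in M0 medium, against 88.5, 106 and 86.0 CPM in control medium (log2 fold change 0.38 ± 0.10 SE, edgeR adjusted p = 0.018). In each of these 3 genes control replicate 2 stood highest among the control libraries. Of 30 proteasome subunits 12 rose and none fell (median 0.18), PSMB3 among them with 171, 141 and 146 CPM in M0 medium, against 111, 128 and 111 CPM in control medium (log2 fold change 0.39 ± 0.09 SE, edgeR adjusted p = 0.0148). With the length trend removed, 26 oxidative phosphorylation genes, 11 mitochondrial ribosomal genes and 10 proteasome genes rose and 1 proteasome gene fell. None of the 3 lists had a called member without control replicate 1 or without M0 replicate 1. Dropping M0 replicate 3 left 21 oxidative phosphorylation genes, 7 mitochondrial ribosomal genes and 8 proteasome genes, and dropping control replicate 3 left 15, 6 and 8. With control replicate 2 dropped, 30 mitochondrial ribosomal genes rose.

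At the other end stood chromatin genes, whose median transcript has 9288 bases. Of 35 modifiers and remodellers 6 fell and none rose (median -0.23), against 4.5% lower over all genes tested and 10.9% lower in the longest length bin: BAZ2A, CHD3, CHD4, CHD7, SETD1A and SMARCA4. BAZ2A, a subunit of a nucleolar remodelling complex, had 59.5, 74.5 and 66.1 CPM in M0 medium, against 85.9, 81.2 and 93.7 CPM in control medium (log2 fold change -0.38 ± 0.08 SE, edgeR adjusted p = 0.00934). CHD3, a helicase of the NuRD complex, had 184, 237 and 226 CPM in M0 medium, against 298, 255 and 299 CPM in control medium (log2 fold change -0.40 ± 0.10 SE, edgeR adjusted p = 0.0176). M0 replicate 1 was lowest for both genes. CHD7, a chromodomain remodeller, had 7.11, 12.3 and 11.0 CPM in M0 medium, against 14.3, 13.6 and 15.1 CPM in control medium (log2 fold change -0.50 ± 0.16 SE, edgeR adjusted p = 0.0408). With the length trend removed 5 members fell and 1 rose. None was called without control replicate 1 or M0 replicate 1, while 20 fell when M0 replicate 2 was left out, 11 for control replicate 2, 3 for M0 replicate 3 and 2 for control replicate 3.

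**Figure D5:**
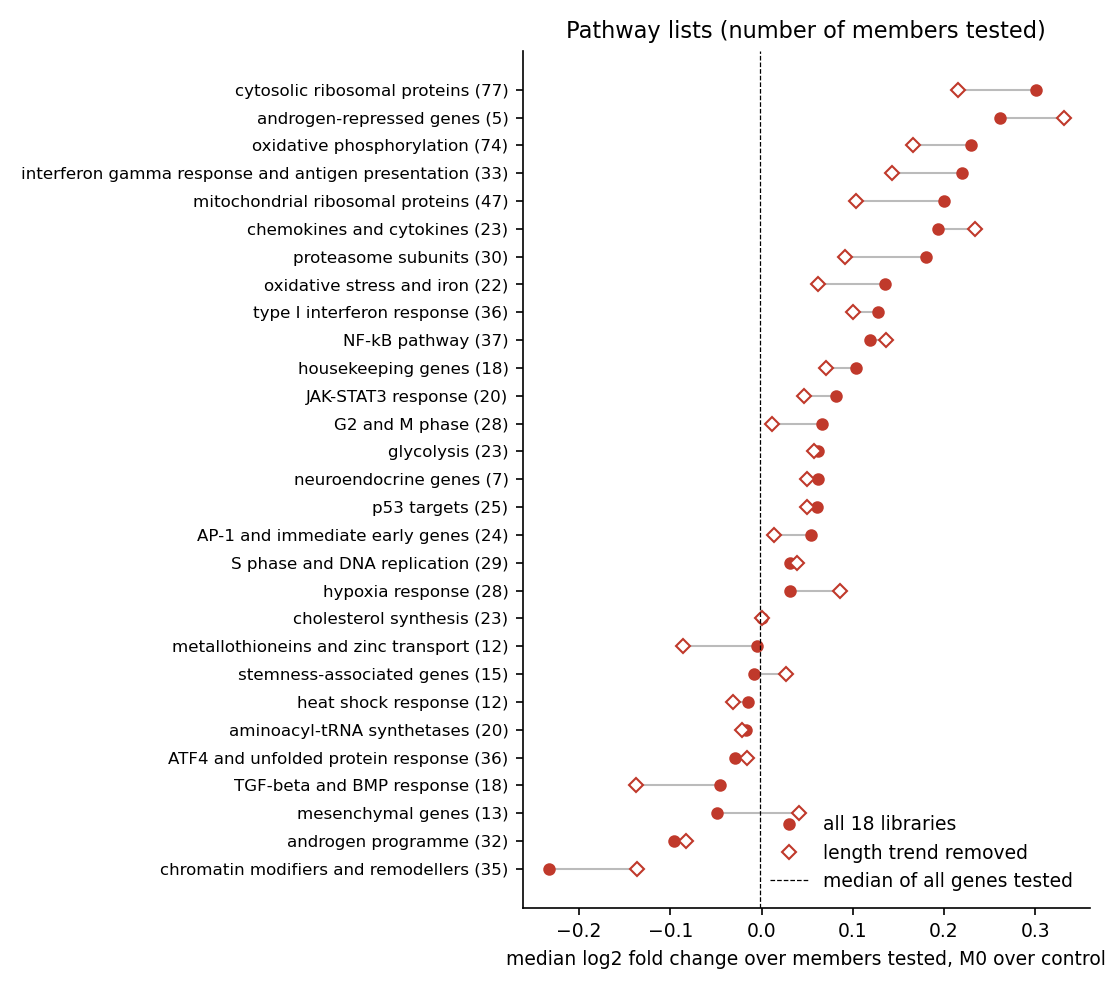
Median log2 fold change of M0 over control medium for 29 pathway lists, with the number of members tested in brackets; filled circles are the fit of all 18 libraries and open diamonds the same with each library's length trend removed. The dashed line is the median of all genes tested (-0.0015); cytosolic ribosomal proteins lie highest (0.30) and chromatin genes lowest (-0.23), and both move toward 0 when the length trend is removed.

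Of 22 genes of oxidative stress and iron, 8 rose, TFRC among them, and none fell (median 0.14). Over all genes tested 7.07% rose and 4.5% fell. GPX1, a glutathione peroxidase, had 345, 281 and 296 CPM in M0 medium, against 238, 275 and 196 CPM in control medium (log2 fold change 0.38 ± 0.10 SE, edgeR adjusted p = 0.0217). TXNRD1, a thioredoxin reductase, had 2264, 1925 and 1921 CPM in M0 medium, against 1590, 1810 and 1500 CPM in control medium (log2 fold change 0.32 ± 0.07 SE, edgeR adjusted p = 0.0119). Control replicate 2 stood highest of the control libraries for both. The list had 4 called members with the length trend removed, 4 without either replicate numbered 3, and 1 without either replicate numbered 1. Of 29 S phase genes 4 rose and 1 fell (median 0.03), and of 28 G2 and M phase genes 6 rose and none fell (median 0.07), against 7.07% higher and 4.5% lower over all genes tested. CCNB1, the mitotic cyclin B1, had 320.4, 296 and 305 CPM in M0 medium, against 234, 264 and 236 CPM in control medium (log2 fold change 0.33 ± 0.07 SE, edgeR adjusted p = 0.0121). PCNA, the replication clamp, had 247, 231 and 242 CPM in M0 medium, against 189, 207 and 209.9 CPM in control medium (log2 fold change 0.25 ± 0.06 SE, edgeR adjusted p = 0.0162). The groups did not overlap for either gene, and no gene of the 2 cell cycle lists was called without control replicate 1 or M0 replicate 1. The lists together held 2 calls when M0 replicate 3 was left out and 6 when control replicate 3 was.

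Stress and sterol lists held calls in both directions, where 7.07% of all genes tested rose and 4.5% fell. The rises in the ATF4 list and among the p53 targets are near that share and are no result about those lists. Of 36 ATF4 and unfolded protein response genes 3 rose and 4 fell (median -0.03), of 23 cholesterol synthesis genes 5 rose and 2 fell (median 0.0002), and of 25 p53 targets 2 rose and 2 fell (median 0.06). DNAJB9, a chaperone of the endoplasmic reticulum, had 34.6, 31.4 and 33.5 CPM in M0 medium, against 26.8, 26.8 and 27.7 CPM in control medium (log2 fold change 0.29 ± 0.08 SE, edgeR adjusted p = 0.0225). HSD17B7, an enzyme of sterol synthesis, had 21.3, 19.6 and 21.9 CPM in M0 medium, against 14.2, 17.4 and 16.4 CPM in control medium (log2 fold change 0.39 ± 0.08 SE, edgeR adjusted p = 0.00862). XPC, a sensor of DNA damage, had 54.4, 54.2 and 55.8 CPM in M0 medium, against 67.6, 67.6 and 69.6 CPM in control medium (log2 fold change -0.32 ± 0.07 SE, edgeR adjusted p = 0.0112). None of the 3 genes overlapped between groups. No member of these 3 lists was called without control replicate 1, 1 was called without M0 replicate 1, and 3 were without M0 replicate 3. HSPA8 and DNAJB1 rose among 12 heat shock genes (median -0.02). DNAJB1 was called under 3 of the 15 alternatives, and its log2 fold change was 0.15, against 0.05 with the length trend removed. Further rises were MMP7 among 13 mesenchymal genes (median -0.05) and DUSP6 among 24 AP-1 and immediate early genes (median 0.05). These single calls are near or below the share over all genes and are no result about either list. Of 18 housekeeping genes 6 rose (median 0.10). DUSP6 was not called with DESeq2, and neither DUSP6 nor MMP7 was without control replicate 1. Of 18 TGF-beta and BMP genes PMEPA1 and SKI fell (median -0.05).

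No member was called in 5 lists in the edgeR fit of all libraries: JAK-STAT3 response (20 genes, median 0.08, or 0.03 without 2 that had no count in 1 or both groups), aminoacyl-tRNA synthetases (20, median -0.02), metallothioneins and zinc transport (12, median -0.01), stemness-associated genes (15, median -0.01) and neuroendocrine genes (7, median 0.06). At an unadjusted p under 0.05 they held 4, 4, 1, 1 and 0 genes, and DESeq2 called 1, 0, 1, 0 and 0. With the length trend removed edgeR called 1 JAK-STAT3 gene and 1 synthetase higher, and with the GC trend removed as well 4 and 1 higher and 1 gene of metallothioneins and zinc transport lower. Dropping control replicate 2 gave 2 JAK-STAT3 genes higher, and 1 synthetase and 1 gene of the zinc list lower. Dropping control replicate 3 gave 1 synthetase higher. Median-of-ratios scaling gave 1 gene of the zinc list lower. STAT3 had 205, 228 and 229 CPM in M0 medium, against 242, 223 and 239 CPM in control medium (log2 fold change -0.09 ± 0.05 SE, edgeR adjusted p = 0.254). MYC, a growth regulator counted among the stemness-associated genes, had 289, 281 and 280.3 CPM in M0 medium, against 294, 284 and 263 CPM in control medium (log2 fold change 0.02 ± 0.05 SE, edgeR adjusted p = 0.878). The groups overlapped for both. Of the genes named in the title of the series, NANOG and SOX2 had 0 counts in all 6 libraries, which allows up to 0.0957 to 0.115 CPM. CD44, a hyaluronan receptor, had 0.499, 0.331 and 0.231 CPM in M0 medium, against 0.362, 0.632 and 0.683 CPM in control medium. These values overlapped, and the difference did not pass the test (log2 fold change -0.68 ± 0.38 SE, edgeR adjusted p = 0.247).

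All 13 luminal prostate markers were detected in both groups, with KLK3 between 3520 and 4000 CPM in the 6 libraries. Their summed level was 9848, 9507 and 9500 CPM in M0 medium, against 9880, 9939 and 9746 CPM in control medium. Among them 3 fell, TMPRSS2 and SLC45A3 included, and STEAP1 rose, against 4.5% lower and 7.07% higher over all genes tested. The single rise is near that share and is no result about the list. Of 23 macrophage and monocyte markers, 6 (TYROBP, MPO, S100A8, MARCO, C1QA and C1QB) had no count in the 6 libraries, 17 with those 6 averaged at most 3 counts per library, and PTPRC, the leukocyte antigen CD45, had 0 counts in M0 medium and 2 in control medium. The sum of the list was 276, 237 and 266 CPM in M0 medium, against 231, 234 and 232 CPM in control medium, and most of each sum was CSF1R. CSF1R, the receptor of a macrophage growth factor, had 265, 227 and 258 CPM in M0 medium, against 223, 225 and 223 CPM in control medium (log2 fold change 0.16 ± 0.06 SE, edgeR adjusted p = 0.0627), so its reads were present without conditioned medium. CSF1R passed the test with the length trend removed (log2 fold change 0.20, edgeR adjusted p = 0.0267) and with the GC trend removed as well (0.25, edgeR adjusted p = 0.0118). In the edgeR fit of all libraries none of the 10 macrophage markers tested passed, 2 had an unadjusted p under 0.05, and DESeq2 called 1 higher and 1 lower; 1 was higher without M0 replicate 2. Of 9 basal and stromal markers 4 were tested, none passed the test with edgeR or DESeq2, and 1 had an unadjusted p under 0.05. Of the 9, 3 had no count in the 6 libraries. Others were detected: COL1A1 had between 16.1 and 22.6 CPM, VWF between 16.0 and 23.6 CPM and KRT14 between 2.58 and 3.64 CPM.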

How the data were processed

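Per the submitters' processing notes, the authors used Trimmomatic, BWA 0.7.17, HOMER 4.10 and build hg38, and they deposited unnormalised expected counts per RefSeq transcript in steps of 0.5. The sources used here do not give strand use or the treatment of multi-mapping reads. Reads were paired, of 150 bases. Of 70507 transcripts, 69830 were named with an NCBI gene table (GRCh38.p14) and 326 with GENCODE 29; 351 without a name (0.0953 to 0.115% of a library) stayed out. Counts were rounded. The test was edgeR 4.0.16 (R 4.3.3; TMM, filterByExpr, quasi-likelihood, 18 libraries, 6 groups, biological coefficient of variation 0.0627), two-sided, and 11017 genes were filtered out. SE is the log2 fold change over the square root of F. CPM is TMM-scaled. Steps were tested on simulated data. Length trends were lowess fits (span 0.3) per library. DESeq2 1.42.0, another scaling, filter and transcript, 2 groups alone, a replicate block and left-out libraries were alternatives. Named genes were those called under all 15 alternatives, the 8 largest protein-coding changes per direction, up to 3 called members per list and direction (else the 2 most abundant), and the title's genes. TAP1, KLK3 and other members were named for their role, and a few genes chosen by the rule are not reported here. Members and lists were chosen with earlier results of these data known.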

Additional observations from a re-analysis of the deposited data

How the results depend on the processing

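The 17069-gene fit called 1207 genes higher and 768 lower in M0 medium. DESeq2 called 1240 lower, and the 2 groups alone gave 516 higher and 277 lower (724 and 321 with the length trend removed). Left-out libraries gave 24 to 1505 higher and 6 to 1230 lower, and the share of calls that were higher ran from 54.2 to 80.0% over the settings, against 61.1%. No setting called a gene in the opposite direction. Changes of at least 2-fold numbered 20 higher and 7 lower. Higher ones numbered 7 with DESeq2, 5 with 2 groups alone, 12 with the length trend removed, 13 with the replicate block as well, 5 with length removed and 2 groups alone, and 1 to 24 with a library left out. Lower ones numbered 1 with DESeq2, 2 with a filter of 1 CPM, 1 with 2 groups alone, 0 with length removed and 2 groups alone, and 0 to 10 with a library left out. Against M2 medium, 18 higher and 0 lower became 42 and 3 with DESeq2, 38 and 4 with no filter, 2 and 3 with 2 groups alone, and 0 to 35 and 0 to 1 with a library left out. The replicate block gave 1201 higher and 811 lower. Libraries sharing a number did not deviate together (correlations -0.03, -0.14 and 0.06, against -0.13 to 0.16 for pairs with different numbers). The main fit therefore did not use the numbers as a pairing. The labels do not say whether they mark one, and so few values cannot decide it. With the length trend removed and a library left out, the counts of higher genes were 143 for M0 replicate 1, 539 for M0 replicate 3 and 78 for control replicate 1, those of lower genes 54, 243 and 22 and, for control replicate 3, 462, and 8 genes were higher by at least 2-fold for M0 replicate 3. The causes of these shifts were not tested. Of 107 named genes tested, none reversed, and 17 lost their call with the length trend removed. Depth limits genes near 0.1 CPM. One transcript stands for a gene, so a switch of transcript can appear as a change of level.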
